A study of Mus musculus with 63 samples.

Results

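AMPA receptors carry most fast excitatory transmission in the hippocampus, and 10 of their genes were followed here through denervated slice cultures. The set was chosen by symbol and held the pore-forming subunits Gria1, Gria2, Gria3 and Gria4, the transmembrane AMPA receptor regulatory proteins (TARPs) Cacng2, Cacng3 and Cacng8, the cornichons Cnih2 and Cnih3, and Shisa9, which encodes the auxiliary subunit CKAMP44. All 10 had a row in the count tables, out of 55291 gene symbols, and all 10 passed the filter on low counts in every comparison.

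Entorhino-hippocampal slice cultures were prepared at postnatal days 3 to 5 from mice of either sex and kept for at least 18 days in vitro. Wildtype cultures were C57BL/6J (Synpo+/+), and cultures without synaptopodin came from B6.129-Synpotm1Mndl/Dllr mice (Synpo-/-), a strain crossed back to C57BL/6J. In an entorhinal cortex lesion (ECL), the perforant path was cut with a scalpel, which removes a major excitatory input to the dentate gyrus (DG) and a part of that to CA3, and cultures were taken 3 days later. The series held 63 libraries of polyadenylated RNA. Of these, 39 came from single dentate gyri or CA3 areas cut out with a scalpel. Wildtype DG had 4 control and 7 lesioned libraries and wildtype CA3 had 2 and 3, while DG labelled Synpo-/- had 7 control and 4 lesioned libraries and CA3 labelled Synpo-/- had 6 and 6. The other 24 libraries came from lysates of 5 to 6 pooled whole cultures each, made in a buffer with cycloheximide. They paired RNA co-immunoprecipitated on beads with an anti-synaptopodin antibody (coIP) with RNA of the precleared lysate (input). There were 5 pairs from control and 5 from lesioned wildtype cultures, and 2 pairs from cultures labelled Synpo-/-, whose lesion state the labels do not give. The sources used here do not say whether cultures of a group came from separate animals, so p-values measure the spread between these cultures or lysates.

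The receptor is a tetramer of GluA subunits, of which Gria2 in its edited form makes the channel impermeable to calcium, and Gria1 is the subunit best known for activity-dependent insertion into hippocampal synapses. TARPs and cornichons bind the pore early, help it leave the endoplasmic reticulum and slow its gating, and TARPs also tether it at the synapse. CKAMP44 changes how fast the receptor desensitises and recovers, and it is known as an auxiliary subunit of dentate granule cells. Synaptopodin is the actin-associated protein needed for the spine apparatus, a stack of endoplasmic reticulum in dendritic spines.

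Regional libraries held 14055930 to 46043990 counted reads. Wildtype coIP and input libraries held 11601154 to 29014397, and those labelled Synpo-/- held 42886994 to 53682143. The count of Synpo did not follow the genotype labels. Synpo was at 19.1 to 24.5 CPM (counts per 1e6 of a library's normalised total) in wildtype control DG and at 41.0 to 69.3 CPM in control DG labelled Synpo-/- (Synpo log2 difference 1.17, adjusted p = 0.00052, edgeR). The sources used here do not say which part of the gene the allele removes, so a count over the whole gene may check nothing, and every direction between genotypes rests on the labels. Replicate 5 of the lesioned wildtype DG stood apart. Its summed dentate granule cell markers were at 33.7 CPM, against 187 to 310 CPM in the other DG libraries and 26.1 to 86.8 CPM in CA3, and its CA3 pyramidal cell markers were at 256 CPM, against 72.5 to 125 CPM in the other DG libraries. The main edgeR tests and the ratios of members that use this library are given with and without it. Alternative fits, DESeq2 among them, and the likeness over all regional libraries include it. In bulk RNA, fewer cells of a type and less RNA per cell cannot be told apart. Levels and overlaps are given in CPM scaled over all 39 regional or all 24 coIP and input libraries. Each main test was scaled over its own groups alone, so ratios of CPM can differ from its log2 differences.

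Per kilobase of exon, the pore subunits covered a wide range of levels and Cacng8 was the lowest member. Gria2, on the minus strand of chr3:80681450-80802835 (GRCm38), led all 8 regional groups with group means of 83.7 to 112 CPM per kb. Gria1 on chr11:57011387-57330244 followed with 53.6 to 88.4 CPM per kb. Gria3 on chrX:41400854-41678601 was at 17.7 to 20.2 CPM per kb, and Gria4, on the minus strand of chr9:4417896-4796234, was at 9.29 to 12.3 CPM per kb.

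**Figure D1:**
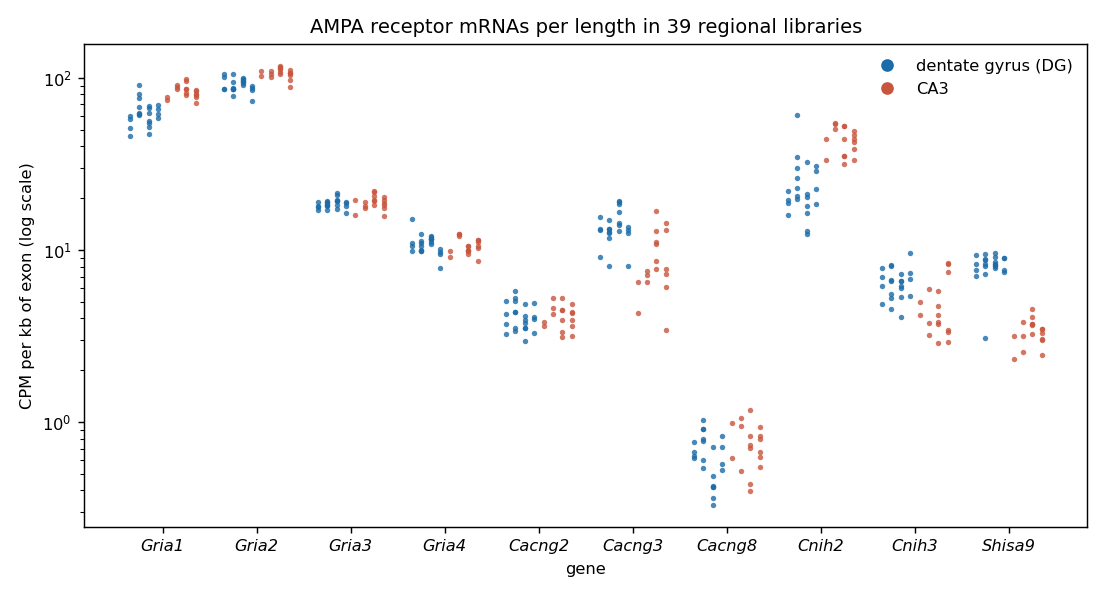
Level of each member per kilobase of exon (CPM per kb, log axis) in the 39 regional libraries, 1 point per library, DG in blue and CA3 in red, with the 4 groups of each region side by side. Gria2 is highest (group means 83.7 to 112 CPM per kb) and Cacng8 lowest (0.450 to 0.838 CPM per kb).

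Among the auxiliary genes, Cnih2, on the minus strand of chr19:5092868-5098521, was at 19.0 to 52.8 CPM per kb over the regional groups, overlapping Gria3 in several DG groups and standing above it in every CA3 group. Cacng3 on chr7:122670492-122769393 was the leading TARP at 5.38 to 16.4 CPM per kb. Shisa9 (chr16:11984113-12270902), Cnih3 (chr1:181352628-181460641) and Cacng2 (minus strand of chr15:77991748-78120028) lay close together, with group means of 2.74 to 8.49, 4.19 to 7.27 and 3.69 to 4.71 CPM per kb. Cacng8 on chr7:3390683-3415648, known as a prominent hippocampal TARP, was at only 0.450 to 0.838 CPM per kb and rested on 15 to 90 reads per regional library. In whole-culture lysates the order at the top was reversed. Gria1 was at 139 to 145 CPM per kb in the 3 input groups, and Gria2 was at 99.5 to 105 CPM per kb.

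The ratio of Gria1 to Gria2 per kilobase, given here as a description, was 0.565 ± 0.033 (SD, n = 4) in wildtype control DG and 0.803 ± 0.124 (n = 7) after ECL, with ranges of 0.530 to 0.596 and 0.656 to 0.973. Without replicate 5 the lesioned wildtype DG was at 0.793 ± 0.132 (n = 6). In DG labelled Synpo-/- it was 0.608 ± 0.0936 (n = 7) in control cultures and 0.764 ± 0.0434 (n = 4) after ECL. CA3 was at 0.717 in wildtype control and 0.840 in wildtype lesioned cultures, and at 0.791 and 0.779 in the groups labelled Synpo-/-. The lysates were at 1.34 to 1.41 in the 3 input groups. Wildtype coIP libraries were at 1.57 and 1.58, and the coIP libraries labelled Synpo-/- at 1.25.

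The cornichons Cnih2 and Cnih3 are close paralogs that had log2 differences of opposite sign between the hippocampal regions, so the 250 bases upstream of their RefSeq start sites (GRCm38.p6) are shown. The Cnih2 window is chr19:5098522-5098771 on the minus strand and the Cnih3 window is chr1:181352378-181352627 on the plus strand. Capitals mark matches on either strand to GGGCGG (the SP box) or CACGTG (an E-box).
Cnih2: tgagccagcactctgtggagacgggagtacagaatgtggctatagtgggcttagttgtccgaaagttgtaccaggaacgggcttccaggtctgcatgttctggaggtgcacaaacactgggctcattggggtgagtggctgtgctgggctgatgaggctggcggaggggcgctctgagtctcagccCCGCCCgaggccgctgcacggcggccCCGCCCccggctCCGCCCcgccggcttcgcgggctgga
Cnih3: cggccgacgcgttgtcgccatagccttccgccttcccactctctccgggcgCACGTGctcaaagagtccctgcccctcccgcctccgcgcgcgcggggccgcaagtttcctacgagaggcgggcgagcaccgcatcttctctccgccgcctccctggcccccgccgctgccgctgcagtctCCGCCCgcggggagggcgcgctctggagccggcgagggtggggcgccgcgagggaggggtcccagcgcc
The Cnih2 window held GGGCGG 3 times and no E-box, with 17 CpG dinucleotides and 65.6% G and C. The Cnih3 window held each motif 1 time, with 36 CpG dinucleotides and 76% G and C, against a median of 6 CpG and 52.4% over 32851 mouse promoters. GGGCGG was present in 32.7% and CACGTG in 6.02% of those promoters. TGACGT (the core of a CRE) and TGANTCA (an AP-1 site) occurred in 6.47% and 6.75% of promoters and in neither cornichon window. Of the 10 members, 7 had an entry in the table, and Gria2, Gria4, Cacng2, Cacng3 and Cacng8 held none of these motifs. However, all 250 bases of the Cacng2 and Cacng3 windows lie in annotated exons, and the Cacng8 window lies inside the annotated gene. For these members the bases upstream of the annotated gene start were therefore not searched. Gria1, Gria3 and Shisa9 were the members without an entry.

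Between the regions, Shisa9 and Cacng3 were higher in DG and Cnih2 was higher in CA3, each called in 3 or 4 of 4 comparisons, and Gria1 had a lower mean in DG in all 4, while Gria2, Gria3, Cacng2 and Cacng8 did not pass the test in any of them. At an adjusted p under 0.05 in edgeR's quasi-likelihood test, 3 of 10 members were called in wildtype control cultures, where 5.39% of all 25656 genes tested were called. In lesioned wildtype cultures 2 members were called (2.05% of all genes), in control cultures labelled Synpo-/- 6 (25.5%), and in lesioned cultures labelled Synpo-/- 3 (13.6%). The median log2 difference (DG minus CA3) of the 10 members was 0.09, -0.01, 0.02 and -0.07 in these 4 comparisons, beside 0.02, 0.06, 0.05 and 0.03 over all genes. Without replicate 5, 5 members were called in lesioned wildtype cultures. The share of all genes called in that fit is not given here, so this count cannot be set beside the 2.05%.

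Shisa9 separated the regions most. In wildtype control DG it was at 43.2, 37.2, 48.8 and 40.0 CPM, and in wildtype control CA3 at 16.6 and 12.1 CPM. Without overlap, DG was 2.98-fold higher (log2 difference 1.57 ± 0.18 SE, adjusted p = 0.00015, edgeR). In the libraries labelled Synpo-/-, control DG lay at 40.9 to 50.1 CPM (median 43.3) and CA3 at 16.98 to 23.8 CPM (median 19.4), a log2 difference of 1.26 ± 0.09 (adjusted p = 4.0e-09). After ECL, DG labelled Synpo-/- was at 39.1, 39.8, 47.0 and 47.3 CPM and CA3 at 12.9 to 18.2 CPM (median 16.6), again without overlap, and the log2 difference was 1.41 ± 0.12 (adjusted p = 2.9e-06). Lesioned wildtype DG ran from 16.1 to 49.9 CPM (median 43.7) against 13.3, 19.9 and 16.5 CPM in CA3. The lowest DG value was that of replicate 5 and was the only one to reach the CA3 range. With it the log2 difference was 1.36 ± 0.28 (adjusted p = 0.034), and without it 1.46 (adjusted p = 7.5e-07).

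**Figure D2:**
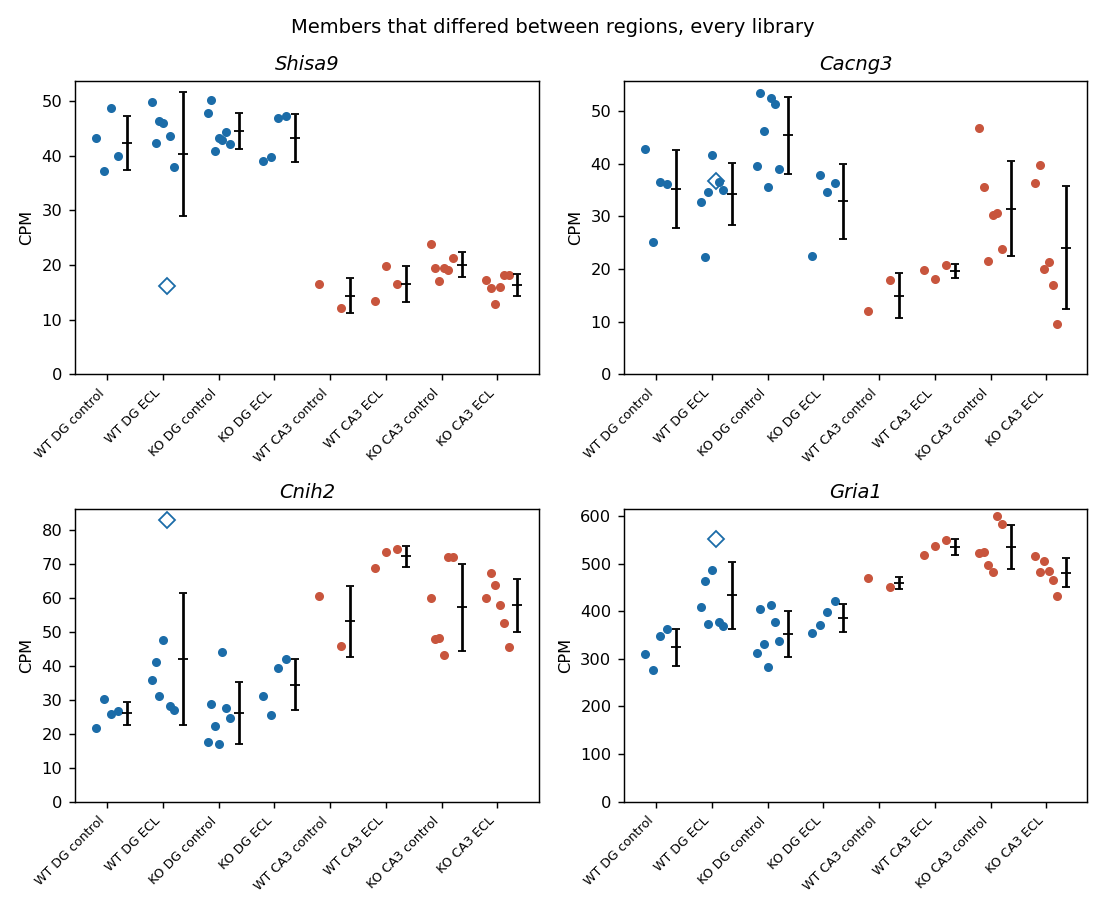
Level (CPM) of members in each regional library of DG (blue) and CA3 (red) by genotype and lesion, with KO for libraries labelled Synpo-/-, bars for mean ± SD and an open diamond for replicate 5 of the lesioned wildtype DG. Shisa9 lies at 37.2 to 50.1 CPM in every DG library but replicate 5 (16.1 CPM) and at 12.1 to 23.8 CPM in CA3, while Cnih2 is higher in CA3.

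Cacng3 encodes the TARP gamma-3. Wildtype control DG had 42.9, 25.2, 36.6 and 36.2 CPM of Cacng3 and wildtype control CA3 had 11.9 and 18.0 CPM. The regions did not overlap, and DG was 2.38-fold higher (log2 difference 1.25 ± 0.22, adjusted p = 0.0033, edgeR). Lesioned wildtype DG was at 22.4 to 41.6 CPM (median 35.1) and CA3 at 19.8, 18.1 and 20.8 CPM, with a log2 difference of 0.88 ± 0.16 (adjusted p = 0.026), or 0.84 without replicate 5 (adjusted p = 0.00092). In control cultures labelled Synpo-/- the regions overlapped, at 35.7 to 53.6 CPM (median 46.2) in DG and 21.6 to 46.9 CPM (median 30.5) in CA3, and the log2 difference was 0.63 ± 0.15 (adjusted p = 0.0030). After ECL, DG labelled Synpo-/- was at 22.4, 37.9, 34.7 and 36.5 CPM and CA3 spread from 9.55 to 39.8 CPM. That difference of 0.47 ± 0.29 did not pass the test (adjusted p = 0.35).

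Cnih2, a cornichon that promotes surface delivery of AMPA receptors and slows their deactivation, had the opposite pattern. It was at 21.8, 30.2, 25.7 and 26.6 CPM in wildtype control DG and at 60.6 and 45.8 CPM in wildtype control CA3. DG was 2.02-fold lower (log2 difference -1.02 ± 0.16, adjusted p = 0.0019, edgeR). In control cultures labelled Synpo-/- it was at 17.03 to 44.2 CPM (median 24.7) in DG and 43.3 to 72.1 CPM (median 54.1) in CA3, with a log2 difference of -1.04 ± 0.17 (adjusted p = 0.00014) and an overlap by the highest DG library. After ECL it was at 31.1, 25.5, 39.4 and 41.9 CPM in DG labelled Synpo-/- and at 45.6 to 67.3 CPM (median 58.9) in CA3, without overlap (-0.73 ± 0.14, adjusted p = 0.0030). Lesioned wildtype CA3 was at 68.8, 73.5 and 74.5 CPM, and lesioned wildtype DG at 27.1 to 83.0 CPM (median 35.9). Replicate 5 held the highest of these values, and the next was 47.7 CPM. With it the log2 difference was -0.73 ± 0.25 (adjusted p = 0.13), and without it -0.99 (adjusted p = 8.0e-05).

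Cnih3, the paralog at lower level, pointed the other way. It was at 11.3 to 19.8 CPM (median 16.9) in control DG labelled Synpo-/- and at 7.89 to 15.9 CPM (median 11.03) in CA3, with overlap. Its log2 difference was 0.52 in wildtype control cultures (adjusted p = 0.19), 0.64 in lesioned wildtype cultures (adjusted p = 0.13), 0.62 ± 0.14 in control cultures labelled Synpo-/- (adjusted p = 0.0019) and 0.39 in lesioned cultures labelled Synpo-/- (adjusted p = 0.46, edgeR). Only the control cultures labelled Synpo-/- passed the test, and without replicate 5 the lesioned wildtype cultures did so as well (0.66, adjusted p = 0.027). The 2 cornichons therefore stood in unequal proportion in the regions. Cnih2 over Cnih3 per kilobase had group means of 3.09 to 5.06 in DG, where the highest was that of lesioned wildtype cultures (3.98 without replicate 5), 8.68 to 13.2 in CA3 and 1.80 to 2.07 in the inputs, given as a description.

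Of the pore subunits, Gria1 was lower in DG. It was at 309.7, 276, 348 and 363 CPM in wildtype control DG and at 469 and 450.0 CPM in CA3. These groups did not overlap, but the log2 difference of -0.49 ± 0.14 missed the threshold in edgeR (adjusted p = 0.067) and passed it in DESeq2 (adjusted p = 0.021). In control cultures labelled Synpo-/- it was at 283 to 413 CPM (median 338) in DG and 483 to 599 CPM (median 523) in CA3, a log2 difference of -0.50 ± 0.08 (adjusted p = 0.00012). After ECL, DG labelled Synpo-/- was at 353.5, 371, 398 and 421 CPM and CA3 at 432 to 517 CPM (median 483), with -0.31 ± 0.10 (adjusted p = 0.0498, edgeR). In lesioned wildtype cultures the difference was -0.24 (adjusted p = 0.29), and -0.33 without replicate 5 (adjusted p = 0.027). Gria2 was at 1336 to 1645 CPM in wildtype control DG and 1599 and 1699.7 CPM in CA3, which overlapped (log2 difference -0.15, adjusted p = 0.69). Gria4, a subunit best known from interneurons and early development, was called in control cultures labelled Synpo-/- alone. There it was at 68.3 to 76.4 CPM in DG and 59.9 to 66.4 CPM in CA3 without overlap (0.30 ± 0.06, adjusted p = 0.0016). These CPM were scaled over all 39 regional libraries and the difference over these groups alone.

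**Figure D3:**
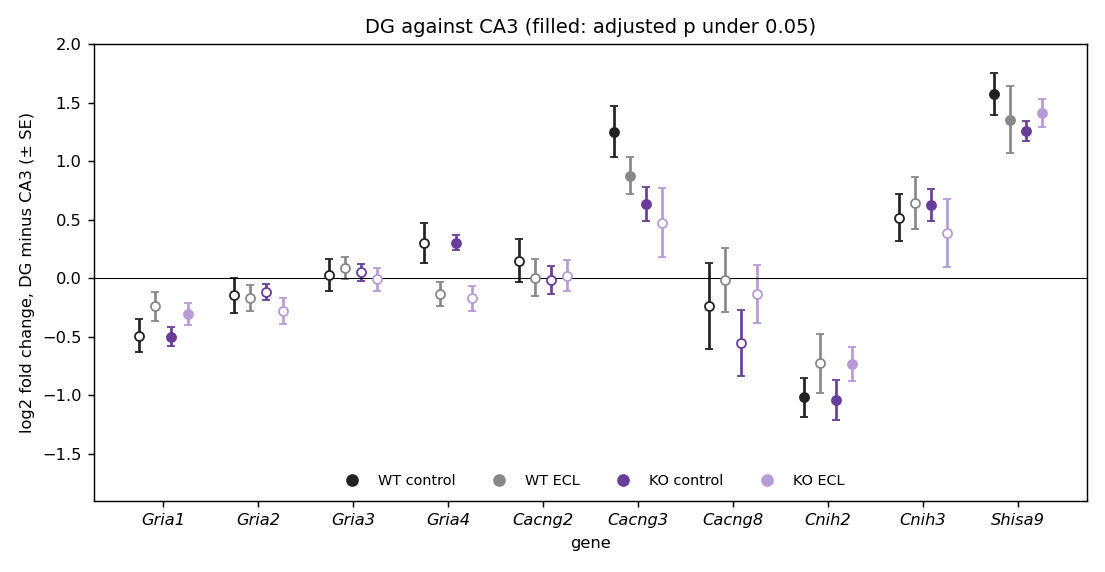
Log2 difference (DG minus CA3) of each member ± SE in the 4 groups of cultures, with KO for libraries labelled Synpo-/- and filled points for an adjusted p under 0.05 in edgeR. Shisa9 lies at 1.26 to 1.57 and Cacng3 at 0.47 to 1.25 above 0, Cnih2 lies at -0.73 to -1.04, and the pore subunits lie closer to 0.

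The 3 calls in wildtype control cultures and the 6 in control cultures labelled Synpo-/- held when each library was left out in turn. With all 8 regional groups in 1 fit, however, Gria4 (0.20, adjusted p = 0.10), Cacng3 (0.53, adjusted p = 0.069) and Cnih3 (0.52, adjusted p = 0.087) missed the threshold in control cultures labelled Synpo-/- (edgeR). In lesioned wildtype cultures the calls were less firm, since leaving out any of the 9 libraries other than DG replicate 5 moved Shisa9 to an adjusted p of 0.060 to 0.17, and leaving out any of 8 (all but DG replicates 2 and 5) moved Cacng3 to 0.052 to 0.17. In lesioned cultures labelled Synpo-/-, Gria1 lost its call without CA3 replicate 1 or 3 or any 1 of the DG libraries (adjusted p 0.059 to 0.16). Summed pan-neuronal markers were mostly lower in DG, the direction of Gria1 and Cnih2 and not that of Shisa9, Cacng3 and Cnih3. They were at 3399 to 5978 CPM in the DG libraries other than replicate 5 (10124 CPM) and at 5345 to 9979 CPM in CA3, and their part in the lower DG levels of Gria1 and Cnih2 was not tested.

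Other AMPA receptor genes were taken from lists by function. In wildtype control cultures, where 5.39% of all genes were called, 3 of 10 further auxiliary subunits were. Gsg1l, a negative modulator of the receptor, was higher in DG (log2 difference 2.63), and Shisa6 (-1.82), which keeps receptors at the synapse, and Syndig1 (-1.06) were lower. Of 7 genes of receptor assembly in the endoplasmic reticulum, Frrs1l was called (-0.70). Among 9 secreted or clustering proteins Nptx1 (-1.23) and Nptxr (-1.30), the neuronal pentraxin and its receptor, were lower in DG. Of 11 tested trafficking and anchoring genes 3 were called, all higher in DG, among them the scaffold Dlg1 (0.98) and the kinase anchor Akap5 (0.60). In the order of auxiliary, assembly, trafficking and secreted or clustering genes, 5, 4, 4 and 7 were called in control cultures labelled Synpo-/- (25.5% of all genes) and 4, 2, 3 and 4 in lesioned ones (13.6%). In lesioned wildtype cultures 2, 0, 1 and 0 were called (2.05%), replicate 5 included.

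After denervation the clearest separation in CPM among the members in wildtype DG was that of Gria1, which missed the threshold. No member passed the test there, where 12.2% of all 23720 genes tested did (edgeR, 2 members at an unadjusted p under 0.05, 1 called by DESeq2). Gria1 was at 309.7, 276, 348 and 363 CPM in control and at 369 to 552 CPM (median 409) in lesioned wildtype DG. In CPM every lesioned library was above every control library, though narrowly (363 and 369 CPM), and overlap on the scale of the test was not examined. The log2 difference (ECL minus control) of 0.39 ± 0.13 had an adjusted p of 0.057 in edgeR and 0.040 in DESeq2. Without replicate 5 it was 0.31 (adjusted p = 0.058). Cnih2 was at 21.8, 30.2, 25.7 and 26.6 CPM in control and at 27.1 to 83.0 CPM (median 35.9) in lesioned wildtype DG, with overlap, and its log2 difference was 0.66 ± 0.25 (adjusted p = 0.082), or 0.39 without replicate 5 (adjusted p = 0.080). The median log2 difference of the members was -0.01 beside -0.00 over all genes.

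In DG labelled Synpo-/-, 2 of 10 members fell after ECL, where 8.53% of all 23310 genes tested were called and 3.36% fell. Gria4 was at 68.3 to 76.4 CPM (median 72.7) in control cultures and at 49.8, 61.3, 59.7 and 63.5 CPM after ECL, without overlap, a log2 difference of -0.35 ± 0.09 (adjusted p = 0.019, edgeR). Cacng3 was at 35.7 to 53.6 CPM (median 46.2) and at 22.4, 37.9, 34.7 and 36.5 CPM, with the lesioned libraries overlapping the lower end of the controls, and changed by -0.51 ± 0.15 (adjusted p = 0.041). Gria2 was at 1407 to 1559 CPM and then at 1133, 1329, 1392 and 1352 CPM, again without overlap, but its log2 difference of -0.24 missed the threshold in edgeR (adjusted p = 0.099) and passed it in DESeq2 (adjusted p = 0.018). Both calls depended on single libraries. Gria4 lost its call without lesioned replicate 1 (-0.28, adjusted p = 0.086) or 3 (-0.34, adjusted p = 0.076), and Cacng3 without control replicate 2, 3, 5 or 6 or lesioned replicate 1, 3 or 4 (adjusted p 0.066 to 0.15). Lesioned replicate 1 held the lowest Gria4, Gria2 and Cacng3 of its group. Glial markers moved with the lesion in both genotypes. In wildtype DG summed astrocyte markers were at 952 to 1260 CPM in control and 2448 to 3483 CPM in lesioned libraries, and microglial markers at 281 to 406 and 752 to 895 CPM. In DG labelled Synpo-/- astrocyte markers were at 1106 to 1505 and 2726 to 3990 CPM, and the part of glial RNA in the members' values was not tested.

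In CA3 no member passed the test after ECL in either genotype. In wildtype CA3 1.78% of all genes were called and 2 members had an unadjusted p under 0.05 (edgeR, 0 called by DESeq2). Gria4 was at 57.5 and 62.5 CPM in control and at 78.4, 76.1 and 77.9 CPM in lesioned wildtype CA3. The groups did not overlap, and the log2 difference was 0.27 ± 0.11 (adjusted p = 0.19). Cnih2 was at 45.8 and 60.6 CPM and then at 68.8, 73.5 and 74.5 CPM, with a log2 difference of 0.34 ± 0.14 (adjusted p = 0.19, edgeR). In CPM scaled over all 39 regional libraries, Gria1, Gria4, Cacng2, Cacng3 and Cnih2 did not overlap between control and lesioned wildtype CA3. The test was scaled over these groups alone. For Gria1 the group means were 459 and 534 CPM, while the test gave a 1.08-fold difference. Cacng3 was at 11.9 to 18.0 CPM in control and 18.1 to 20.8 CPM in lesioned libraries, a narrow separation. Overlap on the scale of the test was not examined. With only 2 control and 3 lesioned libraries, full separation arises easily by chance, and its share over all genes was not counted. In CA3 labelled Synpo-/- 0.077% of all genes were called, and 1 member had an unadjusted p under 0.05 (edgeR, 0 called by DESeq2). Whether the lesion response differed between DG and CA3 was tested directly. In wildtype cultures no member passed (edgeR, 1 member at an unadjusted p under 0.05, 0 called by DESeq2), where 0% of all genes were called, and none passed without replicate 5, where Gria4 had the lowest adjusted p (-0.47, adjusted p = 0.60). In cultures labelled Synpo-/- no member passed either (edgeR, 1 at an unadjusted p under 0.05, 1 called by DESeq2), where 1.12% of all genes were called. The member that DESeq2 called was Gria4, with a difference (DG response minus CA3 response) of -0.45 ± 0.13 (adjusted p = 0.075 in edgeR and 0.0067 in DESeq2). It passed in edgeR without CA3 control replicate 4 or 6, CA3 lesioned replicate 2 or 6 or DG control replicate 4 of that genotype (adjusted p 0.020 to 0.047).

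In the lists of other AMPA receptor genes, calls after the lesion were counted beside 12.2% of all genes called in wildtype DG and 8.53% in DG labelled Synpo-/-. In wildtype DG 2 of 10 further auxiliary subunits rose, the TARPs Cacng5 (0.75) and Cacng4 (0.50), and so did the hydrolases Abhd6 (0.58) and Abhd12 (0.46) of 7 assembly genes and Gripap1 (0.40) of 11 trafficking genes, while 0 of 9 secreted or clustering genes were called. Without replicate 5 all 5 genes passed again, at 0.69, 0.50, 0.42, 0.33 and 0.29, and the scaffold Dlg1 (-0.41, adjusted p = 0.045) and the anchor Akap5 (-0.46, adjusted p = 0.028) passed as lower (edgeR, 13.8% of all genes called). In DG labelled Synpo-/-, where 3.36% of all genes fell, Dlg1 (-0.73) and Akap5 (-0.86) fell among 11 trafficking genes and Adam22 (-0.34) among 9 secreted or clustering genes. In CA3 none of these genes was called in either genotype (edgeR).

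In whole-culture input RNA of wildtype cultures, 3 of 10 members fell after ECL, where 5.61% of all 17951 genes tested were called and 3.16% fell. Cacng3 was at 182, 167, 139, 140.2 and 152 CPM in control and at 129.7, 126, 121, 115 and 109 CPM in lesioned lysates, without overlap (log2 difference -0.38 ± 0.08, adjusted p = 0.016, edgeR). Cnih3 was at 48.6, 35.6, 31.1, 28.6 and 36.7 CPM and at 27.9, 24.1, 27.0, 27.8 and 24.2 CPM, also without overlap (-0.47 ± 0.12, adjusted p = 0.038). Cacng2, the TARP stargazin, was at 42.0, 40.9, 32.8, 37.2 and 36.1 CPM and at 26.4, 26.35, 26.4, 30.5 and 34.9 CPM (-0.39 ± 0.11, adjusted p = 0.044). The Cacng2 groups overlapped through the highest lesioned lysate. Part of the Cacng2 exons (5.86%) lies opposite the antisense gene A730060N03Rik, and reads of the 2 genes cannot be told apart in these counts. The calls were near the threshold. Leaving out single lysates ended that of Cacng3 once (without control replicate 2, adjusted p = 0.058), that of Cnih3 in 8 of 10 fits (all but those without control replicate 3 or 4, adjusted p 0.051 to 0.10) and that of Cacng2 in 7 of 10 fits (all but those without control replicate 3 or 5 or lesioned replicate 5, adjusted p 0.056 to 0.12). Summed microglial markers were at 441 to 816 CPM in control and 788 to 1120.4 CPM in lesioned lysates, and astrocyte markers at 11179.8 to 17427 and 17024 to 25360 CPM. Interneuron and pan-neuronal markers moved the other way. Interneuron markers were at 1161 to 2302 CPM in control and 925 to 1256 CPM in lesioned lysates, and pan-neuronal markers at 8231 to 9753 and 7152 to 8538 CPM. Other neuronal lists did not all follow. Dentate granule cell markers were at 32.5 to 49.6 CPM in control and 38.4 to 55.1 CPM in lesioned lysates. CA3 pyramidal cell markers were at 154 to 198 and 145 to 189 CPM, and CA1 and subiculum markers at 81.3 to 128 and 75.8 to 88.5 CPM. Control replicate 1 had the highest interneuron and pan-neuronal sums and the highest Cacng3, Cnih3 and Cacng2. The part of these markers in the changes was not tested.

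Between genotypes no member was called in control DG, where 0.0166% of all genes were (edgeR, 2 members at an unadjusted p under 0.05, 0 called by DESeq2), or in control CA3, where 0.00413% were (2 members at an unadjusted p under 0.05, 1 called by DESeq2). The member that DESeq2 called was Cacng3 in CA3. It was at 11.9 and 18.0 CPM in wildtype and at 21.6 to 46.9 CPM (median 30.5) in the CA3 libraries labelled Synpo-/-, without overlap, with a log2 difference of 1.01 ± 0.26 (adjusted p = 0.12 in edgeR and 0.0079 in DESeq2). The test of whether the lesion response differed between genotypes called no member in DG (edgeR, 0 at an unadjusted p under 0.05, 0 by DESeq2), where 0.00381% of all genes were called, and none in CA3 (0 and 0), where 0% were. For Gria4 in DG, called among the libraries labelled Synpo-/- and not in wildtype, that difference was -0.24 (adjusted p = 0.50). Without replicate 5 of the lesioned wildtype DG it was -0.24 as well (adjusted p = 0.61), and no member passed.

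In the synaptopodin coIP, Gria1 was higher and Cacng3 lower than in the input of wildtype lysates, and Cacng3 was lower in lysates labelled Synpo-/- as well. In control wildtype lysates 6 of 10 members were called against their input, where 55% of all 18222 genes tested were called, and in lesioned wildtype lysates the same 6 genes were called (58.3% of all genes). In both, Gria1, Gria3, Cacng2, Cacng8 and Cnih3 were higher and Cacng3 was lower in the coIP, while 29.6% of all genes were higher and 25.5% lower in control and 30.5% and 27.8% in lesioned lysates. In lysates labelled Synpo-/- 2 members were called, Cacng8 as higher and Cacng3 as lower (31.4% of all genes called, 15% higher and 16.4% lower). The median log2 difference (coIP minus input) of the members was 0.23, 0.30 and 0.11, beside 0.04, 0.02 and 0.02 over all genes.

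Gria1 was at 720.0, 851, 922, 862 and 927 CPM in control wildtype inputs and at 961, 956, 1280.3, 1121 and 1128 CPM in the coIPs. The coIPs were above every input, and the log2 difference was 0.37 ± 0.10 (adjusted p = 0.0066, edgeR). Within each lysate it was 0.17 to 0.47 and above 0 in 5 of 5. In lesioned wildtype lysates the inputs were at 907, 876, 951, 931 and 726 CPM and the coIPs at 975, 1258, 1158, 1353 and 824 CPM, which overlapped, with a log2 difference of 0.37 ± 0.14 (adjusted p = 0.034). The lysates labelled Synpo-/- had inputs of 819.9 and 858 CPM and coIPs of 729 and 924 CPM (-0.06 ± 0.15, adjusted p = 0.80). Within those lysates the difference was -0.17 and 0.11, so they fell on both sides of 0, as they did when coIP and input were matched by the other number their labels give (-0.24 and 0.17). The difference between genotypes was tested between control wildtype lysates and those labelled Synpo-/-, whose lesion state is not given. It was 0.37 ± 0.19 and missed the threshold (adjusted p = 0.72, edgeR).

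Cacng3 was the member that was lower in the coIP. In control wildtype lysates it was at 182, 167, 139, 140.2 and 152 CPM in the inputs and at 128, 105, 91.9, 95.2 and 109.6 CPM in the coIPs, without overlap (-0.54 ± 0.11, adjusted p = 0.00064, edgeR). Lesioned wildtype lysates gave -0.56 ± 0.10 (adjusted p = 0.00022). Lysates labelled Synpo-/- gave -0.55 ± 0.13 (adjusted p = 0.0080), with inputs of 129 and 122 CPM and coIPs of 83.3 and 92.1 CPM. The difference between control wildtype lysates and those labelled Synpo-/- was -0.04 ± 0.19 (adjusted p = 0.98, edgeR). All 12 lysates had less Cacng3 in the coIP than in the input, by -0.41 to -0.73 on the log2 scale, and the other matching of the lysates labelled Synpo-/- gave -0.56 and -0.48.

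**Figure D4:**
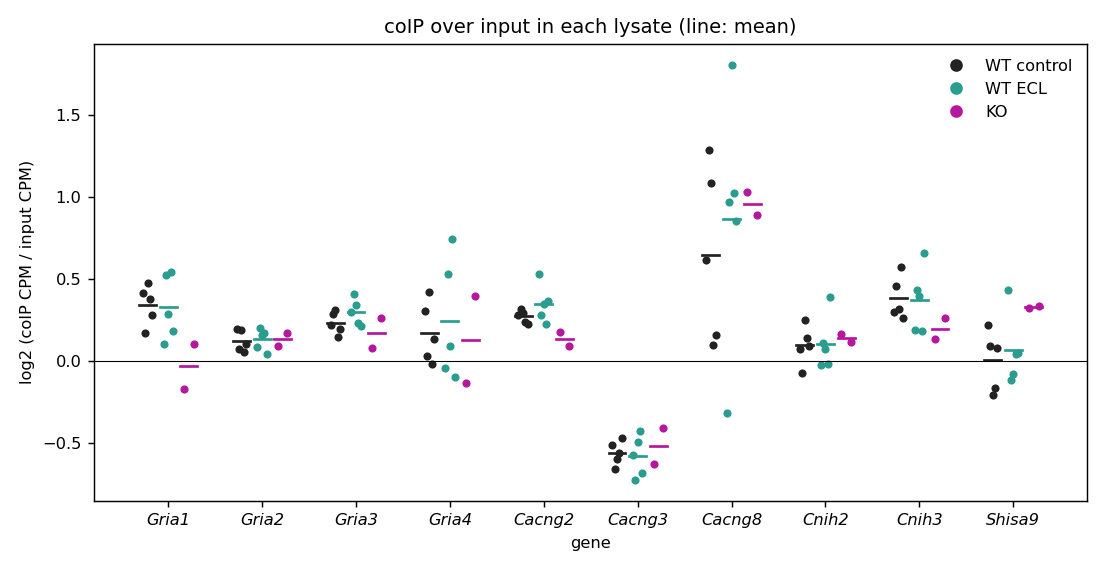
Log2 ratio of coIP to input of each member in single lysates (points), with the mean (line), for control and lesioned wildtype lysates (n = 5 each) and lysates labelled Synpo-/- (KO, n = 2). Gria1 lies above 0 in all 10 wildtype lysates and on both sides of 0 in the lysates labelled Synpo-/-, and Cacng3 lies at -0.41 to -0.73 in all of them.

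The other called members moved by small amounts. Gria3 was 0.25 ± 0.09 higher in control wildtype coIPs (adjusted p = 0.020) and 0.32 ± 0.10 higher in lesioned ones (adjusted p = 0.017, edgeR). Cacng2 was 0.29 ± 0.10 (adjusted p = 0.022) and 0.37 ± 0.12 higher (adjusted p = 0.017). Cnih3 was 0.39 ± 0.14 (adjusted p = 0.032) and 0.39 ± 0.09 higher (adjusted p = 0.0028), and in lysates labelled Synpo-/- it was at 0.16 (adjusted p = 0.44). Each of these 3 genes was higher in the coIP in all 10 wildtype lysates. As paired here, each was also higher in both lysates labelled Synpo-/- (Gria3 0.08 and 0.26, Cacng2 0.18 and 0.09, Cnih3 0.13 and 0.26). With the other matching, Gria3 (-0.06 and 0.40) and Cacng2 (0.41 and -0.14) had values of opposite sign. The difference between control wildtype lysates and those labelled Synpo-/- was 0.06, 0.14 and 0.18 (adjusted p = 0.97, 0.93 and 0.93, edgeR). Cacng8 had the largest log2 values, 0.75 ± 0.31 (adjusted p = 0.048), 0.86 ± 0.30 (adjusted p = 0.022) and, in lysates labelled Synpo-/-, 0.93 ± 0.32 (adjusted p = 0.044), but on 14 to 148 reads per library. Gria2 was at 0.14 and 0.16 in wildtype lysates (adjusted p = 0.19 and 0.24) and Cnih2 at 0.12 and 0.13 (adjusted p = 0.63 and 0.38). The difference for Gria4 in control wildtype lysates was 0.20 (adjusted p = 0.18), and passed the test with the lysate as a block (adjusted p = 0.049).

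Several of these calls ended when 1 library was left out, while Gria1 in control wildtype lysates and Cacng3 in both wildtype sets kept theirs in all 10 fits. In control wildtype lysates Cacng8 lost its call without input replicate 1, 3, 4 or 5 or coIP replicate 2 or 3, and without coIP replicate 2 (4.23 CPM, against 1.46 to 2.42 CPM in the others) the log2 difference was 0.41 (adjusted p = 0.20). Cnih3 lost it there without input replicate 2, 3, 4 or 5 or coIP replicate 1 or 2 (adjusted p 0.054 to 0.093), Cacng2 without input replicate 3, 4 or 5 or coIP replicate 1 or 2 (0.052 to 0.081), and Gria3 without input replicate 4 or 5 (0.056 and 0.082). In lesioned wildtype lysates Gria1 lost it without input replicate 1, 2, 4 or 5 or coIP replicate 2, 3 or 4 (0.055 to 0.093), Cacng2 and Cacng8 each without input replicate 3 or coIP replicate 5 (0.051 to 0.055), and Gria3 without input replicate 1 (0.052). In lysates labelled Synpo-/- Cacng3 lost it without input replicate 1 (0.059), and Cacng8 without either input or coIP replicate 1 (0.090 to 0.17).

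Exon length, the union of all annotated exons of a gene, moved with the coIP to input ratio across all genes. It is not the length of the transcripts present. In control wildtype lysates the median log2 difference rose from -0.38 among the shortest genes to 0.40 among the longest (5 bins of equal size by exon length), and in lesioned wildtype lysates from -0.43 to 0.42. In lysates labelled Synpo-/- the bins were at -0.13, -0.18, -0.05, 0.04 and 0.25. The members span 1.369 kb (Cnih2) to 15.548 kb (Gria2). With the length trend removed, Gria2 turned from 0.14 to -0.39 in control wildtype lysates (adjusted p = 0.00066, edgeR) and from 0.16 to -0.41 in lesioned ones (adjusted p = 0.0020). Cnih2 turned from 0.12 to 0.73 (adjusted p = 0.0095) and from 0.13 to 0.87 (adjusted p = 0.00012), but with the length and GC trends removed and the lysate as a block it was at 0.13 (adjusted p = 0.18) and 0.14 (adjusted p = 0.17). Gria3 lost its calls with the length trend removed, at -0.0917 (adjusted p = 0.36) and -0.0367 (adjusted p = 0.76), and with GC and the block it was at 0.12 (adjusted p = 0.074) and 0.19 (adjusted p = 0.031). Cacng2 was at 0.20 in control (adjusted p = 0.13, or 0.029 with the lysate as a block) and 0.31 in lesioned wildtype lysates (adjusted p = 0.048) with the length trend removed. The calls in control wildtype lysates then split into 4 higher and 2 lower members, in place of 5 and 1, those in lesioned ones into 4 and 1, and those in lysates labelled Synpo-/- into 2 and 1, in place of 1 and 1. The shares of all genes called higher or lower in these fits are not given here. These counts are therefore not a result about the members.

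**Figure D5:**
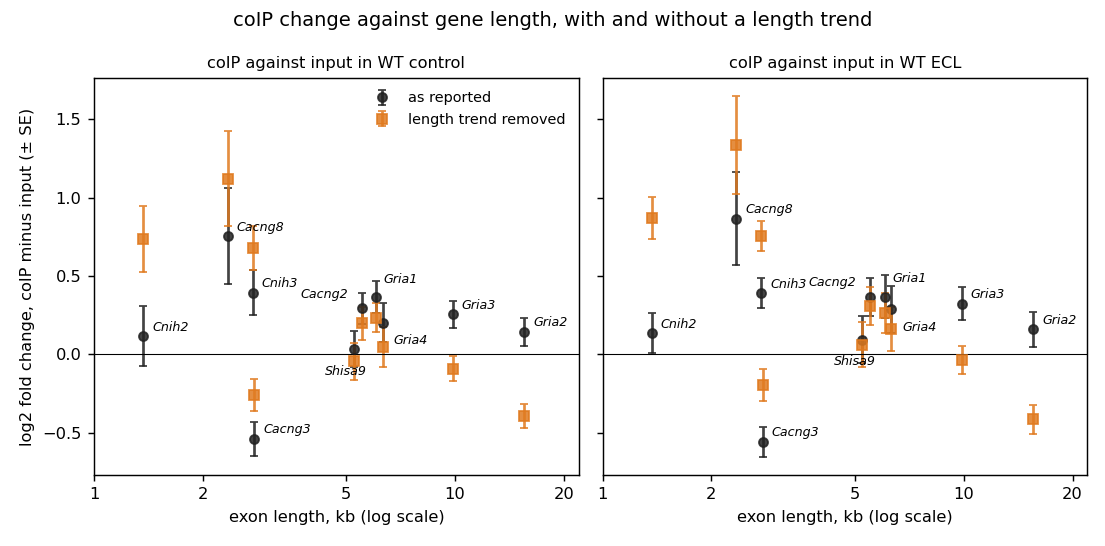
Log2 difference (coIP minus input) ± SE of the members in control (left) and lesioned (right) wildtype lysates against exon length (kb, log axis), as reported and with the length trend over all genes removed. Removing the trend lowers the long gene Gria2 to -0.39 in control wildtype lysates and lifts the short gene Cnih2 to 0.73 (0.13 when the GC trend was removed too and the lysate was a block), while Gria1 stays above 0 and Cacng3 below 0.

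Gria1 stayed above 0 with the length trend removed, at 0.23 in control (adjusted p = 0.048) and 0.26 in lesioned wildtype lysates (adjusted p = 0.10). With the lysate as a block these were 0.23 (adjusted p = 0.0044) and 0.24 (adjusted p = 0.035). Gria1 was at -0.12 in lysates labelled Synpo-/-. Cacng3 stayed below 0 at -0.26 (adjusted p = 0.049), -0.20 (adjusted p = 0.12, or 0.061 with the block) and -0.37 (adjusted p = 0.047). With the length and GC trends removed and the lysate as a block, Gria1 was at 0.28 and 0.30 and Cacng3 at -0.46 and -0.41 in the 2 wildtype sets, all past the threshold, while Cacng8 missed it at 0.44, 0.58 and 0.69. Cnih3 gave 0.54 and 0.60 in that fit (adjusted p = 9.2e-06 and 0.00013). Summed pan-neuronal markers were at 7152 to 9753 CPM in wildtype inputs and at 4232 to 6414 CPM in the coIPs, and their part in the members' ratios was not tested. The coIP to input difference did not pass a test between lesioned and control wildtype lysates for any member (edgeR, 0 at an unadjusted p under 0.05, 0 by DESeq2). It did not pass between control wildtype lysates and those labelled Synpo-/- either (0 and 0), with 0% of all genes called in each test.

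The lists of other AMPA receptor genes are read beside the 29.6% of all genes that were higher and the 25.5% that were lower in control wildtype coIPs. There 4 of 9 tested auxiliary subunits were higher, among them Gsg1l (0.85) and Shisa6 (0.71), and Cnih1 was lower (-0.65). Of 7 assembly genes 3 were higher and 1 lower. Of 11 trafficking and anchoring genes 4 were higher, among them Epb41l1 (0.89), Dlg4 (0.67) and Grip1 (0.58), and 1 was lower. Among 9 secreted or clustering genes 3 were higher, with Nptxr (0.95) among them, and Nrn1 was lower (-1.09). In lysates labelled Synpo-/- the calls of Nptxr (0.67), Dlg4 (0.65), Gsg1l (0.46) and Nrn1 (-0.92) had the same sign.

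Over the 39 regional libraries, the genes whose mean-centred log2 CPM lay closest to each pore subunit were Fbxo21, Ralgps2 and Lrp11 for Gria1 (root mean square difference 0.103, 0.106 and 0.107), and Fnip1, Ptbp2 and 4932438A13Rik for Gria2 (0.0713, 0.0857 and 0.0915). For Gria3 they were Tnks2, Mycbp2 and Kansl1 (0.0927, 0.0939 and 0.0959), and for Gria4 Lztfl1, Uggt2 and Fam172a (0.125, 0.127 and 0.135). The median difference over the 7747 genes compared was 0.259 to 0.298. Gria1 itself varied by 0.289 around its mean and Gria3 by 0.109, so Gria3 was the steadiest pore subunit over these libraries.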

How the data were processed

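RNA of single cut regions (39 libraries) and of coIP and input (24 libraries) was analysed from the deposited raw counts of reads per gene, which the authors made without regard to strand over GENCODE exons of mm10 (GRCm38). The submitters' processing notes name cutadapt 3.5, STAR 2.7.8a and featureCounts 2.0.1. Counts were scaled by TMM, filtered with filterByExpr and tested per comparison, on the groups it names, with edgeR 4.0.16 (R 4.3.3, two-sided quasi-likelihood test), with Benjamini-Hochberg adjustment over all genes tested and a threshold of 0.05. DESeq2 1.42.0, other size factors, no filter, a length trend, a replicate block, 1 fit of all 8 regional groups and leaving out each library were alternatives. CPM are counts per 1e6 of the TMM-scaled total, scaled over all 39 regional or all 24 coIP and input libraries. The tests were scaled per comparison. Per kb refers to the union of a gene's exons in the deposited annotation.

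All 10 members are named, besides at most 4 called genes per further list, those with the smallest p, and the 3 genes most like each pore subunit. The members and lists were chosen with earlier results of these data known. Replicate 5 of the lesioned wildtype DG was singled out after its marker levels were seen.

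The coIP and input of one number were read as coming from one lysate. Their deviations from the group means correlated at 0.189 to 0.442 over genes in control and 0.105 to 0.381 in lesioned wildtype lysates. The highest correlation with another number was 0.0708 to 0.290 in control and -0.0238 to 0.147 in lesioned ones. In lesioned replicate 1 it exceeded that of the same number (0.147 against 0.121). The 2 pairs labelled Synpo-/- gave 0.0456, and -0.0456 when crossed, which mirror each other by construction. There the labels give each input a preparation number and a crossed replicate number, and the preparation number was used, so within-lysate and blocked values of these pairs depend on that reading. On simulated counts, edgeR called 193 of 200 genes changed 4-fold for the lesion in wildtype DG (22715 genes) and 198 of 200 for the coIP in control wildtype lysates (17954 genes). Fewest were called for the regional difference in lesion response in wildtype cultures (143 of 200). The genotype difference of the coIP gave 166 and that of the lesion response in CA3 gave 171. Members differed by less than 4-fold in every comparison, so recovery at changes of their size was not measured. Replicates were checked for duplicates, and none were found (chi-square per degree of freedom at least 6.87). Reads carry no molecular identifiers that were used here, so depth covers counting error only.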

Additional observations from a re-analysis of the deposited data

Results flagged for a closer look

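In 4 of 100 combinations of a member and a group of 4 to 7 libraries, 1 library lay far from the others of its group in the level of a member, and chance alone gives about 1 in 20. In lesioned wildtype DG, replicate 5 was the highest of 7 libraries for Cnih2, at 83.0 CPM against 27.1 to 47.7 CPM in the others. The same library was the lowest of 7 for Shisa9, at 16.1 CPM against 38.0 to 49.9 CPM. In control DG labelled Synpo-/-, replicate 1 was the highest of 7 for Cacng8, at 1.68 CPM against 0.774 to 1.13 CPM. Among the control wildtype inputs, replicate 3 was the highest of 5 for Gria3, at 339.7 CPM against 295 to 304 CPM.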

How the results depend on the processing

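The number of members called moved with the processing in several comparisons, and the cause was not tested. For most alternatives, and for fits with 1 library left out, the share of all genes called is not given here. These counts are therefore not a result about the members. For the lesion in wildtype DG, where 0 were called, DESeq2 and the fit without a filter on low counts called 1 each, and the replicate block and the fit of all 8 groups called 2 each. For the lesion in DG labelled Synpo-/- (2 called), the fit without a filter and that of all 8 groups called 1 each and the replicate block 0. The replicate block called 4 between regions in lesioned wildtype cultures (2 as reported) and 1 for the lesion in the input (3). Between genotypes in CA3 (0), DESeq2, no filter and the replicate block called 1 each, and for the difference of lesion responses between regions in cultures labelled Synpo-/- (0), DESeq2 and the removal of the length trend called 1 each. Without a filter, the coIP called 3 members in control and 3 in lesioned wildtype lysates (6 each), and DESeq2 called 1 in lysates labelled Synpo-/- (2). The fit of all 8 groups split the calls between regions in control cultures labelled Synpo-/- into 1 higher and 4 lower, against 4 higher and 2 lower.

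With the length trend removed, with it and the replicate block, and with length and GC trends and the block, Gria2 in the coIP reversed to -0.39, -0.39 and -0.29 in control and to -0.41, -0.41 and -0.33 in lesioned wildtype lysates. In the first 2 of these fits Gria3 reversed to -0.0917 and -0.0933 in control and to -0.0367 and -0.0369 in lesioned lysates, and the difference between genotypes of Cacng3 to 0.0395 and 0.0399. Removing the length trend moved the median of all genes for the lesion in wildtype DG from -0.003 to -0.143.

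Leaving out 1 library gave 0 to 2 called members for the lesion in DG labelled Synpo-/-, 0 to 5 between regions in lesioned wildtype cultures, 2 to 4 between regions in lesioned cultures labelled Synpo-/-, 0 to 1 for the regional difference in lesion response there, 2 to 6, 4 to 6 and 0 to 2 in the coIP of control wildtype, lesioned wildtype and Synpo-/- lysates, and 0 to 3 for the lesion in the input. It turned the sign of Gria4 for the lesion in wildtype DG (-0.23 to 0.0139), of Cnih2 in control wildtype coIPs (-0.0267 to 0.25), of Gria1 (-0.24 to 0.10) and Cacng2 (-0.0670 to 0.25) in coIPs labelled Synpo-/-, and of the genotype difference of Cacng3 (-0.12 to 0.0356).

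The sources used here do not say whether same-numbered regional or input libraries share more than a number. Their correlations were -0.22 to 0.54, the highest for replicate 4 of DG and CA3 in control cultures labelled Synpo-/-. Pairing lysates by the replicate block changed 1 coIP call where no trend was removed, that of Gria4 in control wildtype lysates. With the length trend removed it brought Gria1 in lesioned (adjusted p 0.10 to 0.035) and Cacng2 in control wildtype lysates (0.13 to 0.029) past the threshold. Counts over all genes depended on the tool, with 4218 by DESeq2 against 2886 by edgeR for the lesion in wildtype DG, 1343 against 397 in wildtype CA3 and 1500 against 492 between regions in lesioned wildtype cultures. Depth limits Cacng8 most, and groups of 2 or 3 libraries limit wildtype CA3 and the lysates labelled Synpo-/-.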
